A study of Mus musculus with 6 samples.

Results

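The fatty acid elongases and desaturases described here are 10 of the 23282 gene rows in each count file, taken by gene symbol: *Elovl1*, *Elovl2*, *Elovl3*, *Elovl5*, *Elovl6*, *Elovl7*, *Scd1*, *Scd2*, *Fads1* and *Fads2*. All 10 were found, and all 10 passed the filter on low counts. They were measured by RNA sequencing of liver from 3 wild-type (*Tcf7l2* f/f) and 3 liver-specific *Tcf7l2* knockout (*Alb-Cre;Tcf7l2* f/f) C57BL/6 mice (C57BL/6N in the study's methods) aged 12 weeks, which were fasted for 24 h and refed normal chow (NCD) over the next 24 h. Both groups carry the floxed alleles, and the knockout adds *Cre* recombinase under the promoter of the hepatocyte gene albumin. The deletion is thus directed at hepatocytes, and which other cells of the liver keep *Tcf7l2* was not tested. The comparison asks how these genes of fatty acid synthesis stood in refed liver without hepatocyte *Tcf7l2*, which encodes a transcription factor of the Wnt pathway. Libraries are named by the labels (7-2, 8-1 and 8-3 in wild-type, 7-2, 7-3 and 8-3 in knockout), and nothing in the labels says what these numbers stand for.

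Palmitate, the main product of fatty acid synthase, and fatty acids from the diet are reshaped in the endoplasmic reticulum by elongases (ELOVL proteins), which carry out the condensation step that lengthens the chain, and by desaturases (SCD and FADS proteins), which put in double bonds. ELOVL6 turns palmitate into stearate, and SCD1 turns palmitate and stearate into palmitoleate and oleate, the main monounsaturated fatty acids of liver triacylglycerol. FADS2, FADS1, ELOVL5 and ELOVL2 act in alternation on linoleic and alpha-linolenic acid from the diet and give arachidonic acid and docosahexaenoic acid. ELOVL1, ELOVL3 and ELOVL7 lengthen saturated and monounsaturated chains. In the liver, many of these genes are known to respond to feeding through SREBP1c, the product of *Srebf1*.

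In the RefSeq annotation of GRCm38.p6, the assembly of the files' mm10 build, *Scd1* (chr19:44394450-44407709) and *Scd2* (chr19:44293676-44306864) lie with *Scd3* and *Scd4* within 204.4 kb on chromosome 19. *Fads2* (chr19:10062765-10101503, minus strand) and *Fads1* (chr19:10182877-10196874, plus strand) lie 81373 bases apart on the same chromosome, and *Elovl3* (chr19:46131897-46135694) is there as well. The other elongase genes are *Elovl6* (chr3:129532386-129638495), *Elovl2* (chr13:41182382-41220403), *Elovl5* (chr9:77917365-77984519), *Elovl1* (chr4:118426874-118432953) and *Elovl7* (chr13:108214326-108287109).

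Promoter windows (250 bases before to 50 bases after a RefSeq start, GRCm38.p6) were at hand for 6 of the 10 genes, in 8 windows. They were searched on both strands for CTTTGAT and CTTTGTT, letters that TCF/LEF proteins such as TCF7L2 bind, for CACGTG (an E-box), for TCACNCCA (a form of the sterol regulatory element that SREBPs bind) and for CCAAT. The 250 bases before the start are shown for the 3 genes whose levels separated the genotypes (*Elovl6*, *Elovl2* and *Fads2*) and for *Elovl5*, which has most of the matches. Capitals mark a match to one of the motifs, each sequence reads 5′ to 3′ along the gene's strand, and ATTGG is CCAAT on the other strand.
*Elovl6* (chr3:129532136-129532385, plus strand): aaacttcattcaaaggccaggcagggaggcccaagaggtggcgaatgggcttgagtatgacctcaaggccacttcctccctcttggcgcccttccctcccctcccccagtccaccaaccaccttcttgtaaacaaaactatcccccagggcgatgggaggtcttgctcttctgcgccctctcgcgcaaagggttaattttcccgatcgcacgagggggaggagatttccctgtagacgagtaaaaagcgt
*Elovl2* (chr13:41220404-41220653, minus strand): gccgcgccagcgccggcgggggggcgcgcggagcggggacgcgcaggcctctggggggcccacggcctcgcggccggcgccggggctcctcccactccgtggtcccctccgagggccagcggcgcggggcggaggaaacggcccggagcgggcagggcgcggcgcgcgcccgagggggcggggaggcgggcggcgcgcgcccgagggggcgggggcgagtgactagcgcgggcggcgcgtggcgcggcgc
*Fads2* (chr19:10101504-10101753, minus strand): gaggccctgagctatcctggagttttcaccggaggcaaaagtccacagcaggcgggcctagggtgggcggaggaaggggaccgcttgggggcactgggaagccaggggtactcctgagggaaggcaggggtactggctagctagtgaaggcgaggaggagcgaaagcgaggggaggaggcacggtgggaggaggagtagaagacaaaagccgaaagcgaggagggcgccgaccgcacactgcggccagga
*Elovl5* (chr9:77917115-77917364, plus strand): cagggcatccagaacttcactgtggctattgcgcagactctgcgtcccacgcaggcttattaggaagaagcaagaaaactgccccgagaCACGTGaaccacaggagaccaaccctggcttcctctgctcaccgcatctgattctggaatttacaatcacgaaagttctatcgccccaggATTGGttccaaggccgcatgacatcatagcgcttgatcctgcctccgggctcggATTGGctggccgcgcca
Neither TCF/LEF form was in any of the 8 windows (0 of 8), against 9.33% of all 32851 windows, and the form of the sterol regulatory element was in 0 of 8, against 4.36%. The E-box was in 1 of 8, that of *Elovl5* at −161 to −156, against 7.15%. CCAAT was in 2 of 8 against 37.4%, namely in *Elovl5* (at −71 to −67 and −17 to −13) and in *Elovl1* (at −35 to −31). The window of *Elovl2* shown here was 87.2% G and C, that of *Fads2* 64.8%, that of *Elovl6* 56.4% and that of *Elovl5* 55.6%. A match is only a match of letters, and its absence says nothing of sites elsewhere. Other forms of these motifs, TCF/LEF forms among them, were not searched and may lie in the sequences shown.

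The libraries held 60619938 to 133384586 counts, and the 10 genes together took 89395 to 231173 of them. Levels are given as CPM, the counts scaled to library sizes that were adjusted by TMM factors. That scaling matters here, since 23 *Mup* genes (major urinary proteins, near-identical copies) took 33.4% to 56.3% of the counts in wild-type and 19.5% to 30.2% in knockout libraries. *Tcf7l2* itself stood at 4.88, 6.13 and 6.85 CPM in the wild-type group and at 3.31, 2.74 and 3.33 CPM in the knockout group. Every knockout library was below every wild-type one, its counts run over the whole gene, and the adjusted *p* of 0.0856 from edgeR's quasi-likelihood test misses 0.05 (0.00274 from DESeq2). All 8 hepatocyte markers were detected, and their summed level overlapped between the groups (61485 to 67423 CPM in wild-type, 54335 to 77790 CPM in knockout). The *p* values measure the spread between 3 libraries per group, each taken as 1 mouse.

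Levels were compared between genes only per kilobase of exon (CPM per kilobase of the union of a gene's exons). *Scd1* was the most abundant of the 10 transcripts in both genotypes, at 156 ± 81.3 in wild-type and 173 ± 71.3 CPM per kilobase in knockout liver (mean ± SD, *n*=3). *Fads1* (38.0 ± 4.60), *Elovl2* (32.5 ± 0.383), *Elovl5* (29.7 ± 6.20) and *Fads2* (27.9 ± 3.47) followed in wild-type liver, *Fads1* above *Elovl2* in every library and *Elovl5* overlapping both *Elovl2* and *Fads2*. *Elovl3* (13.7 ± 11.5) overlapped *Fads2* and *Elovl6* (7.36 ± 0.676), and *Elovl1* (2.81 ± 0.260), *Scd2* (0.395 ± 0.117) and *Elovl7* (0.221 ± 0.0342) each stood apart from the gene before it. Thus the genes of the polyunsaturated route lay close together, whereas *Scd2*, an isoform better known from brain and neonatal liver, and *Elovl7* were the lowest of the 10.

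In knockout liver, *Elovl2* (47.9 ± 1.22 CPM per kilobase) came before *Fads1* (43.7 ± 3.03), *Fads2* (39.2 ± 2.73) and *Elovl5* (34.3 ± 9.34), and *Elovl6* (14.6 ± 3.89) came before *Elovl3* (6.76 ± 0.953). *Elovl2* and *Fads1* did not overlap there, nor did *Elovl6* and *Elovl3*. With the longest single transcript as the length, *Elovl2* was the fifth in both genotypes (33.5 in wild-type and 49.3 CPM per kilobase in knockout), behind *Fads1*, *Elovl5* and *Fads2*, so its place among these depends on the length used. The place of *Elovl3* before *Elovl6* in wild-type liver rests on library 7-2 (26.7 against 8.06 CPM per kilobase of exon), since the values were 4.74 against 7.29 in 8-1 and 9.63 against 6.71 in 8-3.

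**Figure D1:**
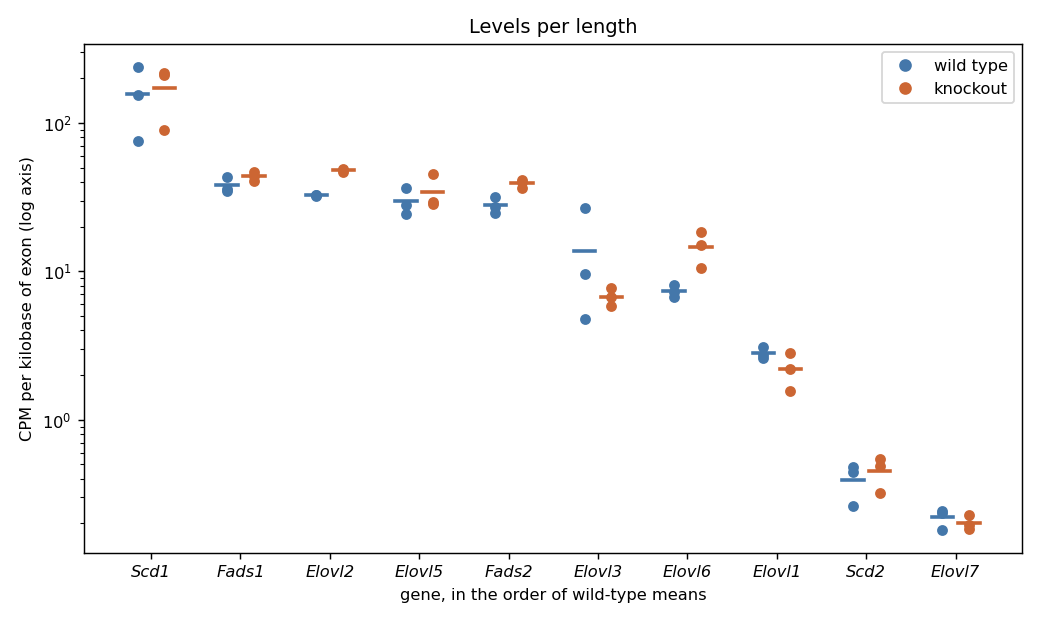
CPM per kilobase of exon of the 10 genes (log axis), with 1 point per library, blue for wild-type and orange for knockout, and a line at each group mean. *Scd1* lies at the top in both groups, *Elovl2*, *Fads2* and *Elovl6* have knockout points above all wild-type points, and *Scd2* and *Elovl7* lie below 1 CPM per kilobase.

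Between the genotypes, none of the 10 genes passed edgeR's test at an adjusted *p* under 0.05 (0 higher and 0 lower, against 0.071% of the 14076 genes tested called higher, 0.377% lower and 0.448% in either direction). In 3 of the 10, *Elovl6*, *Elovl2* and *Fads2*, every knockout library was above every wild-type library, and in 0 every knockout library was below, against 10.2% and 9.08% of all genes. The same 3 were the ones with an unadjusted *p* under 0.05 (3 higher, 0 lower, against 6.7% and 6.76%). DESeq2 called 2 of the 10 higher, *Elovl6* and *Elovl2*, and 0 lower, against 1.48% and 1.78% of the 13513 genes to which it gave an adjusted *p*. The median log2 fold change of the 10 was 0.19, with 7 above 0 and 3 below, and the median over all genes tested was −0.017.

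With library sizes alone, which shift the median of all genes to a log2 fold change of 0.61, edgeR called 4 of the 10 higher (*Elovl6*, *Elovl2*, *Fads2* and *Scd2*), where 20.9% of all genes were called higher. Summed markers of some other liver cells did not overlap between the groups. The summed level of 8 stellate cell markers was 49.5 to 59.7 CPM in wild-type libraries against 72.8 to 80.3 CPM in knockout libraries (0 of 8 called by edgeR, 2 by DESeq2), and that of 8 sinusoidal endothelial markers was 63.4 to 71.2 and 79.8 to 84.6 CPM (0 of 8 by either tool). Of the stellate markers, 5 had log2 fold changes above 0 and 3 below. *Dcn* differed most in level (15.8 ± 4.14 CPM in wild-type, 31.2 ± 4.60 CPM in knockout). All 8 endothelial markers had log2 fold changes above 0. None of these 16 markers was at 0 in all libraries. Their part in the higher *Elovl6*, *Elovl2* and *Fads2* levels was not tested, and in bulk liver more cells of a type and more RNA per cell cannot be told apart. With the *Mup* genes left out before scaling, the log2 fold changes were 0.99 for *Elovl6*, 0.56 for *Elovl2* and 0.50 for *Fads2*. Any other part of the *Mup* share was not tested.

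**Figure D2:**
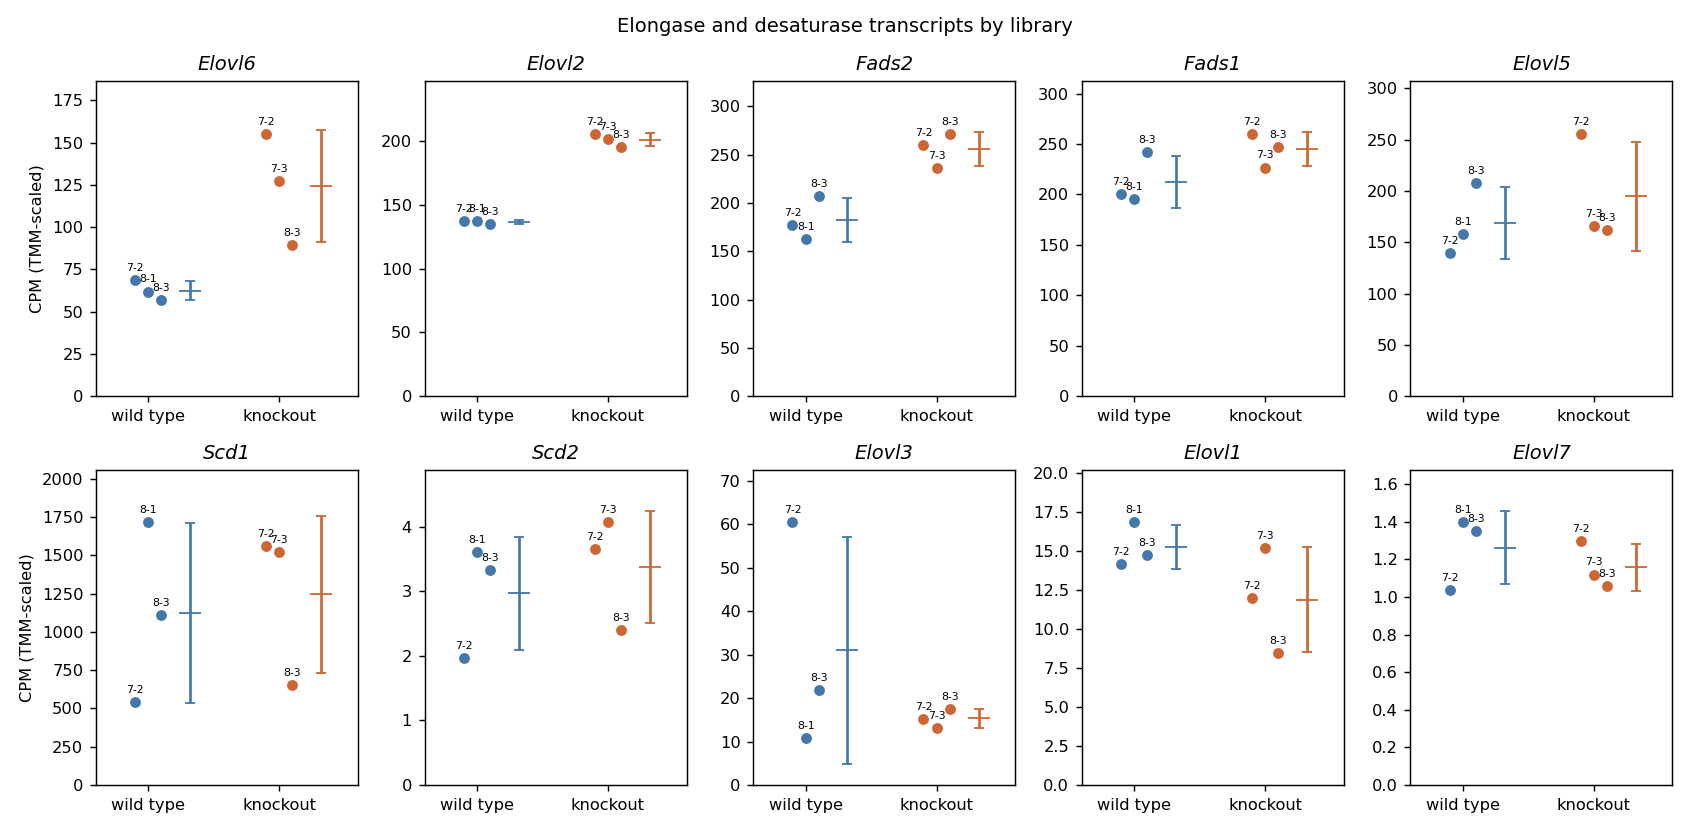
CPM (TMM-scaled, axes from 0) of each gene in each library, with the label number beside the point and the mean ± SD at the right of each group (*n*=3). *Elovl6*, *Elovl2* and *Fads2* have no overlap between blue (wild-type) and orange (knockout) points, the 2 lowest *Scd1* libraries belong to different genotypes, and 1 wild-type library carries the high *Elovl3* value.

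**Figure D3:**
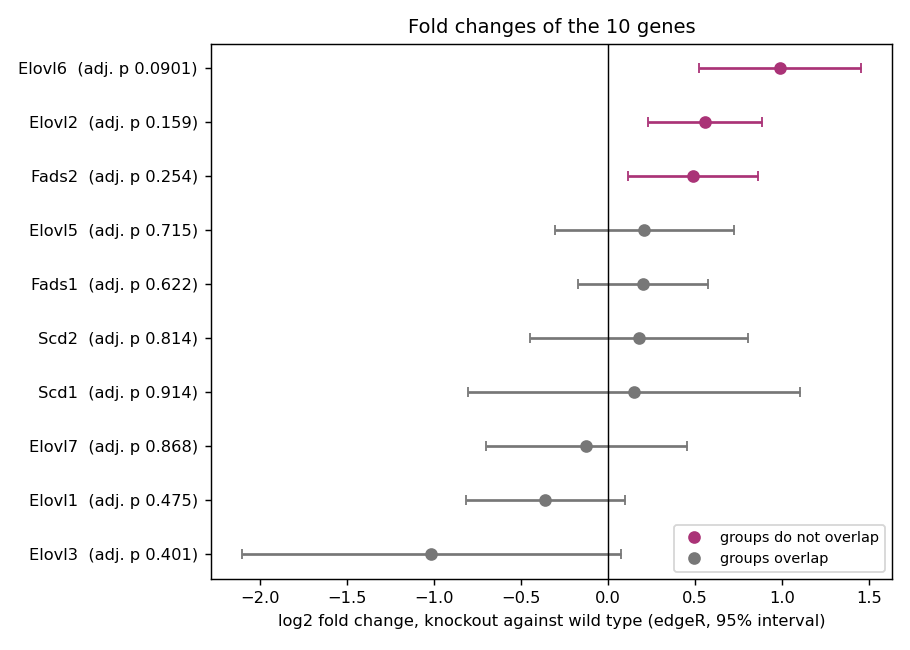
Log2 fold change of the 10 genes, knockout against wild-type, with the 95% interval from edgeR and the adjusted *p* over all 14076 genes beside the gene name. The intervals of *Elovl6*, *Elovl2* and *Fads2* lie above 0, the others include 0, and that of *Elovl3* is the widest.

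*Elovl6*, at the step from palmitate to stearate, stood at 68.4, 61.9 and 57.0 CPM in wild-type libraries 7-2, 8-1 and 8-3, and at 155, 128 and 89.6 CPM in knockout libraries 7-2, 7-3 and 8-3. The lowest knockout library was above the highest wild-type one, and the knockout libraries were spread more widely than the wild-type ones. The log2 fold change was 0.99 (SE 0.21, 95% interval 0.52 to 1.46, a fold of 1.99), with an adjusted *p* of 0.0901 from edgeR and 0.000457 from DESeq2. Leaving out knockout 8-3, the lowest of its group, gave 1.18 with an adjusted *p* of 0.0494 from edgeR, a setting with 0.0907% of genes called higher. Leaving out any other library gave no call, with a log2 fold change of at least 0.80.

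*Scd1*, the stearoyl-CoA desaturase of adult liver, varied more between libraries than between genotypes. It stood at 544, 1716 and 1109 CPM in the wild-type group, and at 1560.4, 1519.7 and 651 CPM in the knockout group. Wild-type 8-1 was the highest of all 6 libraries and wild-type 7-2 the lowest, with a ratio of 3.15 between them. The log2 fold change was 0.15 (SE 0.43, 95% interval −0.81 to 1.10, adjusted *p*=0.914 from edgeR). The difference in mean log2 CPM was 1.50 for knockout 7-2 and 7-3 against wild-type 7-2 alone. It was −1.08 for knockout 8-3 alone against wild-type 8-1 and 8-3. Wild-type 7-2 and knockout 8-3 were the lowest of their groups, and what the label numbers mean is not given. The sign of the fitted fold change turned without wild-type 7-2 (−0.19), knockout 7-2 (−0.050) or knockout 7-3 (−0.023).

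*Scd2* stood at 1.97, 3.61 and 3.34 CPM in the wild-type group, and at 3.65, 4.07 and 2.40 CPM in the knockout group (log2 fold change 0.18 with an SE of 0.28, edgeR adjusted *p*=0.814, and −0.042 without wild-type 7-2). Wild-type 7-2 and knockout 8-3 were thus the 2 lowest libraries of *Scd2*, as they were of *Scd1*. Their neighbours *Scd3* (4.09, 8.89 and 7.38 CPM in the wild-type group, 10.8, 11.4 and 5.34 CPM in the knockout group) and *Scd4* (1.82, 3.14 and 3.07 CPM, then 4.68, 4.87 and 2.28 CPM) were also lowest in these 2 libraries. The 4 transcripts share sequence, and the authors counted multiple alignments. Of the 50-base words in the canonical transcript of *Scd2*, 3.79% occur in another *Scd* transcript, and of those of *Scd1*, 4.48%. How far the counts of *Scd2*, *Scd3* and *Scd4* hold reads of *Scd1* was not tested, and these values are uncertain. No such word is shared among the elongase transcripts, nor between *Fads1* and *Fads2*.

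*Fads2*, the desaturase at the entry of the polyunsaturated route, stood at 177, 162 and 207 CPM in the wild-type group, and at 259.7, 237 and 272 CPM in the knockout group. All knockout libraries were above all wild-type ones. The log2 fold change was 0.49 (SE 0.17, 95% interval 0.12 to 0.87, a fold of 1.41), with an adjusted *p* of 0.254 from edgeR and 0.0701 from DESeq2. *Fads1*, the desaturase of the later step to arachidonic acid, stood at 201, 195 and 242 CPM in the wild-type group, and at 260.4, 227 and 247 CPM in the knockout group. Wild-type 8-3 lay among the knockout libraries, and the log2 fold change was 0.20 (SE 0.17, 95% interval −0.17 to 0.58, adjusted *p*=0.622 from edgeR). Exons of unnamed genes on the opposite strand cover 6.57% and 9.21% of the exon bases of *Fads1* in GENCODE M39, and whether the counting used strand is not given in the sources used here.

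*Elovl2*, the elongase of the longest polyunsaturated chains on the way to docosahexaenoic acid, had the smallest spread of the 10. It stood at 137.5, 137.2 and 134.6 CPM in the wild-type group, and at 206, 201 and 196 CPM in the knockout group, with an SD of 1.18% of the mean in wild-type and 2.54% in knockout. The gap between the groups was wider than either group's range. The log2 fold change was 0.56 (SE 0.15, 95% interval 0.23 to 0.89, a fold of 1.47) and changed little with any library left out (0.54 to 0.58). EdgeR gave an adjusted *p* of 0.159, and DESeq2 gave 0.00696.

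*Elovl5*, which lengthens the products of FADS2, stood at 139, 158 and 208 CPM in the wild-type group, and at 256, 166 and 162 CPM in the knockout group. Knockout 7-2 alone was above the wild-type range. The log2 fold change was 0.21 (SE 0.23, 95% interval −0.31 to 0.72, adjusted *p*=0.715 from edgeR) and −0.038 without that library.

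*Elovl3*, which lengthens saturated and monounsaturated chains and is known in mouse liver for its daily rhythm and its higher level in males, stood at 60.5, 10.7 and 21.8 CPM in the wild-type group, and at 15.3, 13.2 and 17.5 CPM in the knockout group. Wild-type 7-2 was far above the other 5 libraries, and the knockout libraries fell between the other two wild-type ones. The log2 fold change of −1.02 (SE 0.49, 95% interval −2.11 to 0.074, adjusted *p*=0.401 from edgeR) became −0.079 without wild-type 7-2. Opposite-strand exons of *Pitx3* cover 18.3% of its exon bases.

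Since *Elovl3* is tied to both programmes, the clock and sex-biased genes are given beside it. Of 18 circadian clock genes, edgeR called 0 (at an unadjusted *p* under 0.05, 6 higher and 1 lower, 3 higher and 0 lower by DESeq2), with a median log2 fold change of 0.28. Of these genes, 13 had log2 fold changes above 0 and 5 below. *Per2* (8.01 ± 2.70 CPM in wild-type against 19.7 ± 5.72 CPM in knockout, log2 fold change 1.30) and *Cry1* (1.06) had adjusted *p* of 0.0895 and 0.0975 from edgeR. Both were called by DESeq2 and had no overlap between the groups.

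Of 12 male-biased liver genes, 1 was called lower and 0 higher (4 higher and 3 lower unadjusted, 1 and 2 by DESeq2). It was *Susd4*, which encodes an inhibitor of complement, at 6.47 ± 0.445 CPM in wild-type livers against 0.802 ± 0.366 CPM in the knockout group (log2 fold change −3.0, SE 0.32, adjusted *p*=0.0033). *Slco1a1*, an organic anion transporter, had 0.84 and *Hsd3b5*, a steroid dehydrogenase, −0.82 (adjusted *p* 0.0633 and 0.159 from edgeR). Of 5 female-biased genes tested of 12, edgeR called 1 higher and 0 lower (2 higher and 1 lower unadjusted, 2 higher and 0 lower by DESeq2), the cytochrome P450 *Cyp3a44* (log2 fold change 5.03, SE 0.88, adjusted *p*=0.0496, between 0.0349 and 0.205 with a library left out). *Cyp3a41a*, another P450 of this family, had 4.73 (adjusted *p*=0.0856) and *Acot3*, a peroxisomal thioesterase, −1.45 (adjusted *p*=0.337). The *Cyp3a* genes are near-identical copies, so their split is uncertain, and whether these genes bear on *Elovl3* was not tested.

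*Elovl1*, an elongase of very long saturated chains of sphingolipids, stood at 14.2, 16.9 and 14.8 CPM in the wild-type group, and at 12.0, 15.2 and 8.50 CPM in the knockout group. Knockout 7-3 lay within the wild-type range, and the log2 fold change was −0.36 (SE 0.21, 95% interval −0.82 to 0.10, adjusted *p*=0.475 from edgeR). *Elovl7* stood at 1.04, 1.40 and 1.35 CPM in the wild-type group, and at 1.30, 1.12 and 1.06 CPM in the knockout group, from 69 to 117 counts per library. Its groups overlapped, with a log2 fold change of −0.13 (SE 0.26, 95% interval −0.70 to 0.45, adjusted *p*=0.868 from edgeR). With library sizes alone, *Elovl1* had 0.27 and *Elovl7* 0.54, both below the 0.61 of the median gene in that setting.

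Ratios of 2 genes within a library do not depend on how the libraries are scaled, and 6 were compared. The log2 ratio of *Fads1* to *Fads2* counts was 0.18, 0.27 and 0.23 in wild-type and 0.0042, −0.061 and −0.14 in knockout libraries. All knockout libraries were below all wild-type ones, with a difference of −0.29 (−0.32 to −0.25 with any library left out), so the balance of the pair lay further towards *Fads2* in knockout liver. The log2 ratio of *Elovl6* to *Elovl5* was −1.03, −1.36 and −1.86 in wild-type and −0.72, −0.38 and −0.86 in knockout libraries. Here the knockout libraries were all above the wild-type ones, with a difference of 0.76 (0.54 to 0.96 with any library left out). For both ratios the two-sided exact permutation test gave *p*=0.1 (0.3 after Benjamini-Hochberg adjustment over the 6 ratios), and 0.1 is the smallest *p* that 3 libraries against 3 allow, so no ratio could reach 0.05.

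The other 4 ratios overlapped between the genotypes. *Elovl6* to *Fasn*, the gene of the synthase that makes palmitate, differed by 0.15 on the log2 scale (exact permutation *p*=0.6), less than the spread of either group (SD 0.26 in wild-type and 0.27 in knockout). *Elovl6* to *Scd1* differed by 0.77 (exact permutation *p*=0.3), with wild-type 7-2, in which *Scd1* was lowest, inside the knockout range. *Elovl5* to *Elovl2* differed by −0.36 (exact permutation *p*=0.3) and *Scd1* to *Scd2* by −0.0042 (exact permutation *p*=1).

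**Figure D4:**
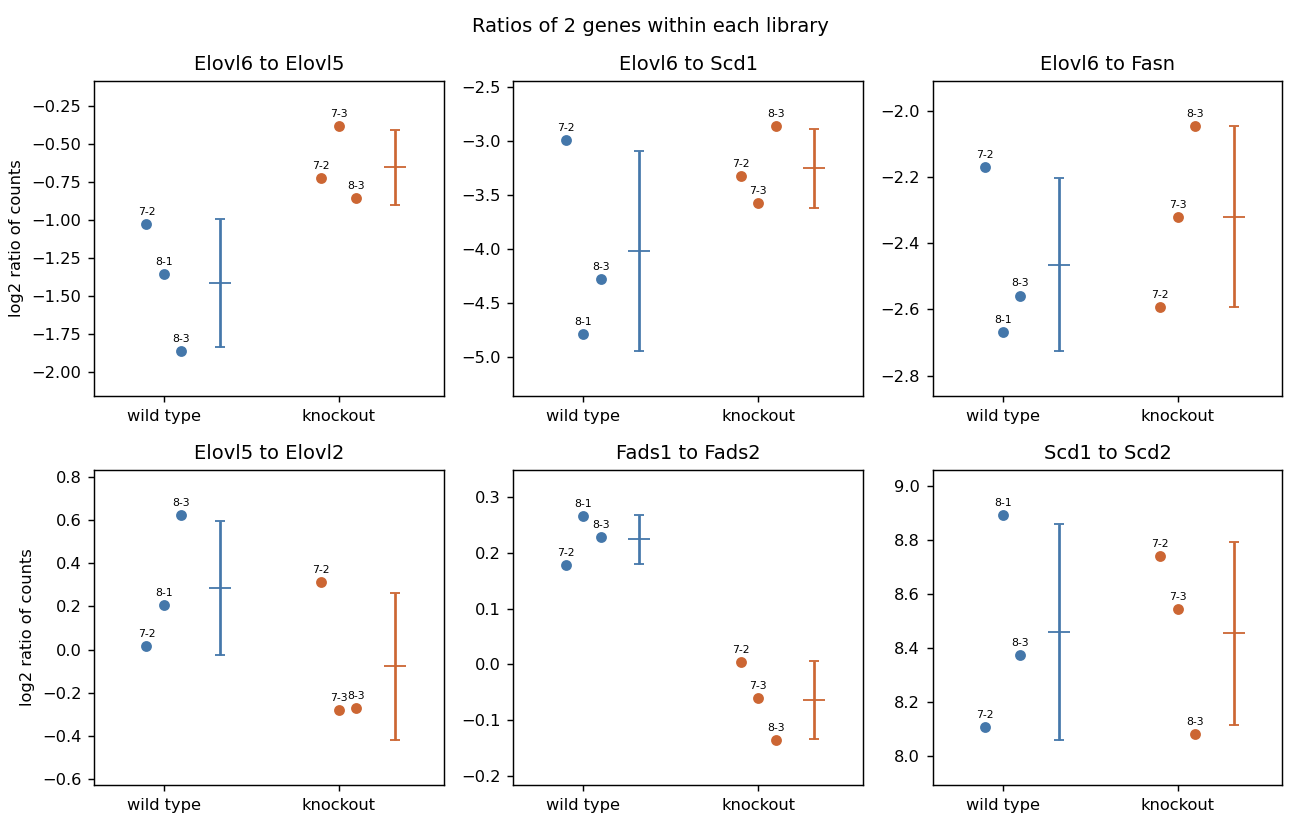
Log2 ratio of the counts of 2 genes in each library, with label numbers, and the mean ± SD at the right of each group (*n*=3). *Fads1* to *Fads2* and *Elovl6* to *Elovl5* separate the genotypes, and the other 4 ratios overlap.

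The libraries did not move as one. Relative to its mean log2 CPM over the 6 libraries, *Scd1* deviated by −0.99 in wild-type 7-2 and by −0.73 in knockout 8-3, whereas *Elovl3* deviated by 1.66 in the former and −0.13 in the latter. *Fads1*, *Fads2* and *Elovl2* stayed within 0.41 of their means in every library. In knockout 8-3, where *Scd1*, *Elovl6*, *Fasn* and *Thrsp* were the lowest of the knockout group, *Fads2* (0.34) and *Srebf1* (0.67) had their highest deviations. *Elovl2* and *Elovl5* had the same order of knockout libraries as *Elovl6*, *Scd1* and *Fasn* (7-2, then 7-3, then 8-3), whereas *Fads1* and *Fads2* were lowest in 7-3.

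**Figure D5:**
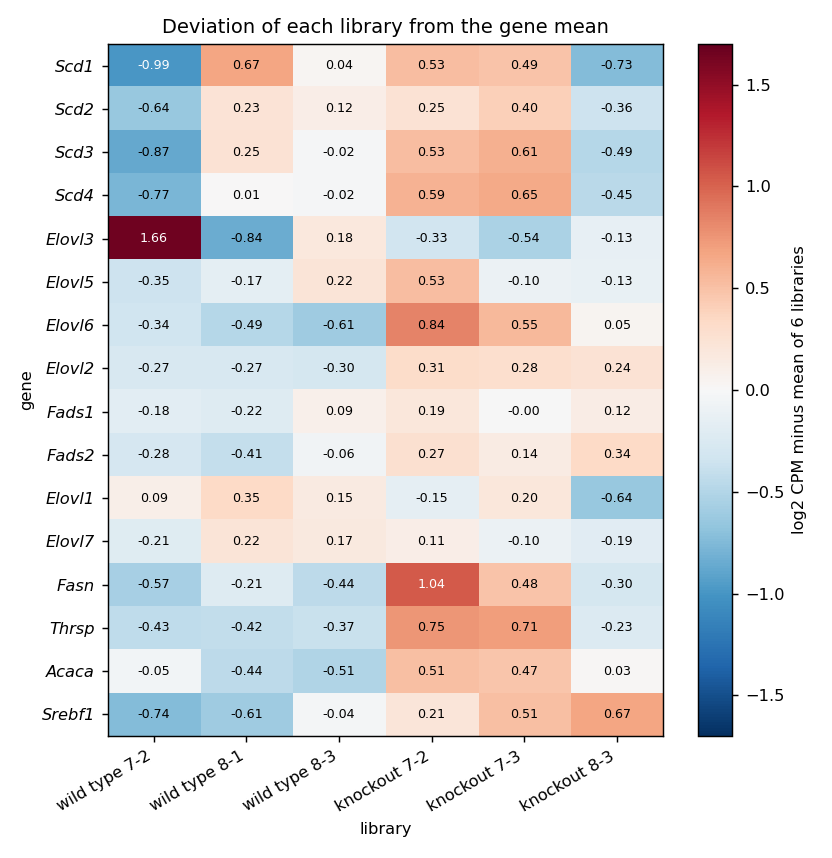
Log2 CPM of each gene in each library minus the gene's mean over the 6 libraries, printed in the cells and coloured from blue (below the mean) to red (above it). The 4 *Scd* genes are lowest in wild-type 7-2 and next lowest in knockout 8-3, and *Elovl2*, *Elovl6* and *Fads2* are negative in all wild-type libraries and positive in all knockout libraries.

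Other genes around these enzymes were read from lists. Of 7 further elongases and desaturases, 5 were tested and 0 were called by edgeR or DESeq2 (2 higher and 0 lower unadjusted). Their log2 fold changes were all above 0, from 0.36 to 0.73, including *Fads6* (5.73 ± 1.22 CPM in wild-type, 8.15 ± 0.982 CPM in knockout, 0.51), *Degs1*, which desaturates dihydroceramide (0.36), and *Fads3* (0.73). *Fads6* and *Degs1* had no overlap between the groups. *Fads3* did overlap, at 1.41, 2.13 and 1.46 CPM in the wild-type group and 4.72, 1.32 and 2.24 CPM in the knockout group. Its log2 fold change ran from 0.094 to 1.06 with a library left out. *Elovl4* and *Degs2* were too low to be tested.

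Condensation by an elongase is followed by further steps of the elongation cycle. Of 6 genes of these steps, 5 were tested and 0 called by either tool (0 higher and 1 lower unadjusted), and all 5 log2 fold changes were below 0, with a median of −0.20. *Hacd2*, a dehydratase of the cycle, had −0.46 (34.0 ± 5.63 CPM in wild-type, 24.8 ± 2.94 CPM in knockout, adjusted *p*=0.282 from edgeR), *Hacd1* −0.22 and *Tecr*, the reductase that ends the cycle, −0.20. Of the genes that carry electrons to desaturases, 6 of 7 were tested and 0 called (0 and 0 unadjusted, 0 by DESeq2), with *Cyb5a*, the microsomal cytochrome b5, at −0.26, *Cyb5r4* at 0.17 and *Cyb5b* at 0.15.

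Supply of malonyl-CoA and palmitate is the step before these enzymes. All 9 genes of this list were tested and edgeR called 0, but 6 were higher and 0 lower unadjusted, DESeq2 called 4 higher and 0 lower, and the median log2 fold change was 0.67. *Mid1ip1*, whose protein stimulates acetyl-CoA carboxylase, stood at a log2 fold change of 0.62 (46.4 ± 4.53 CPM in wild-type, 71.4 ± 3.06 CPM in knockout), *Acaca*, the carboxylase itself, 0.67, and *Thrsp*, a lipogenic protein that binds MID1IP1, 0.88, with adjusted *p* of 0.121, 0.185 and 0.185 from edgeR. All 3 were called by DESeq2. Over all genes, 6.7% were higher unadjusted and 1.48% were called higher by DESeq2. The summed level of the list overlapped between the groups (1365 to 1579 CPM in wild-type, 1510 to 3066 CPM in knockout). *Thrsp* stood at 498, 484 and 252 CPM in knockout 7-2, 7-3 and 8-3, whereas *Mid1ip1* stood at 70.9, 74.6 and 68.6 CPM.

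Among 14 transcriptional regulators, edgeR called 0 (1 higher and 0 lower unadjusted) and DESeq2 called 1. That one was *Srebf1*, at 58.5, 64.3 and 95.4 CPM in wild-type livers against 113, 139 and 156 CPM in the knockout group (log2 fold change 0.90, SE 0.22, edgeR adjusted *p*=0.132, 0.00274 from DESeq2). *Insig2*, which holds SREBPs in the endoplasmic reticulum, had −0.37, with all knockout libraries below all wild-type ones, and *Nr1h3*, the liver X receptor alpha, −0.39.

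Of 12 genes of acyl activation and remodelling, edgeR and DESeq2 called 0 (1 higher and 0 lower unadjusted), and the 3 with the smallest *p* were the acyl-CoA synthetase *Acsl1* (0.54), the acyltransferase *Gpam* (0.72) and *Acsl6* (0.84, under 1 CPM in every library). Of 9 genes of peroxisomal chain shortening, which trims very long chains, edgeR called 0 (1 higher and 1 lower unadjusted) and DESeq2 1 higher. *Abcd3*, a peroxisomal fatty acid transporter, had 0.71 (260.4 ± 69.7 CPM in wild-type, 426 ± 35.8 CPM in knockout, adjusted *p*=0.204 from edgeR and 0.0268 from DESeq2), and *Acaa1a*, a thiolase, −0.50. Of 9 ceramide and sphingoid base genes, 6 were tested and 0 called (0 and 0 unadjusted, 0 by DESeq2), with *Sptlc1* at 0.32, *Sptlc2* at −0.25 and *Cers4* at 0.32. *Sptlc3* had 0 counts in all libraries.

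The remaining marker lists held no call by either tool. The summed level was 73.9 to 91.8 CPM in wild-type libraries against 60.9 to 75.2 CPM in knockout libraries for 8 Kupffer cell and macrophage markers (0 higher and 2 lower unadjusted), 29.5 to 52.8 and 27.8 to 33.7 CPM for 6 cholangiocyte markers, 0.676 to 1.68 and 0.813 to 1.44 CPM for 6 lymphocyte markers, 0.798 to 4.35 and 1.13 to 3.90 CPM for the 5 of 6 neutrophil markers in the files, and 0.852 to 2.51 and 0.672 to 1.79 CPM for 7 adipose markers. These ranges overlapped between the genotypes. *Mpo*, *Ucp1* and *Retn* were at 0 counts in all libraries. The lymphocyte, neutrophil and adipose lists, the last from a tissue rich in *Scd1*, thus summed to at most 4.35 CPM in any library.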

How the data were processed

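Per the labels and the study's methods, total RNA of flash-frozen liver was made into libraries with a directional kit, and the authors deposited raw counts per gene from unique and multiple alignments (Bedtools 2.25.0, mm10, with TopHat in the submitters' processing notes). The aligner version, annotation and use of strand in counting were not given in the sources used here. Quantile normalisation, named in the methods, was not applied to the deposited counts.

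Counts were compared by the quasi-likelihood test of edgeR 4.0.16 (R 4.3.3) with TMM factors and filterByExpr (minimum count 10, minimum total 15), fitted to all 6 libraries with adjusted *p* (Benjamini-Hochberg) over all 14076 genes and called under 0.05. No 2 libraries were copies (chi-square per degree of freedom of at least 201). The script was tested on simulated data. Log2 ratios used two-sided exact permutation tests. Exon lengths came from GENCODE M39, and locations and promoters from RefSeq. A protein comparison that had been planned was not made. Alternatives were DESeq2 1.42.0, other scalings, limma 3.58.1, other filters, replicate blocks and each library left out. The members and lists were chosen with earlier results of these data known. All 10 members were described, with each called gene and up to 3 genes of smallest unadjusted *p* from each of 11 pathway lists, and *Tcf7l2*. Of these, some are not reported here. Other genes named (*Scd3*, *Scd4*, *Dcn*) were taken after their values were seen. *Fasn* was planned for its ratio to *Elovl6*, and its other values were taken after they were seen.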

Additional observations from a re-analysis of the deposited data

How the results depend on the processing

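Scaling by RLE or upper-quartile factors or without the *Mup* genes, limma on quantile-normalised or voom values, either filter and both blocks left the count of called elongases and desaturases at 0 in each direction. DESeq2 called 2 higher, library sizes alone 4, and leaving out a library 0 to 1 (1 without knockout 8-3). Over all genes, calls were 10 higher and 53 lower, with 200 and 240 by DESeq2, 2936 and 88 with library sizes alone, 4 and 27 with limma on quantile-normalised counts, 6 and 44 with voom, 23 and 73 without a filter, and 3 to 18 and 21 to 69 with a library left out. They were 18 and 69 when wild-type 7-2 was the one left out, 3 and 21 for wild-type 8-1, 3 and 34 for wild-type 8-3, 6 and 24 for knockout 7-2, 13 and 35 for knockout 7-3 and 13 and 27 for knockout 8-3. Of the genes of the pathway lists, 1 was called higher and 1 lower. Higher calls were 0 with upper-quartile factors or limma on quantile-normalised counts, 3 without a filter, 12 with DESeq2 (2 lower), 40 with library sizes alone and 0 to 1 with a library left out (0 without wild-type 8-1 or 8-3 or knockout 7-2 or 8-3). The cause was not tested.

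Library sizes alone turned the sign of *Elovl1* (0.27), *Elovl7* (0.54), *Hacd2* (0.12), *Hacd1* (0.39), *Tecr* (0.39), *Cyb5a* (0.33), *Insig2* (0.21), *Nr1h3* (0.19), *Acaa1a* (0.090) and *Sptlc2* (0.40). All 10 values lie below the 0.61 by which that setting shifts the median gene. With a library left out, log2 fold changes ran from −0.038 to 0.38 for *Elovl5*, −0.19 to 0.60 for *Scd1* and −0.042 to 0.37 for *Scd2*. No other gene named by the rule changed sign in any alternative. Libraries with the same label number had correlations across genes of 0.044 (7-2) and −0.016 (8-3) in their deviations. Those with unlike numbers ran from −0.18 to 0.17, so this check cannot decide whether the numbers pair the mice. The numbers were not taken as pairs because the labels do not say what they stand for. A replicate block on the full number gave 15 higher and 34 lower calls over all genes, and on the leading number 6 and 33, with 2 pathway list genes higher in each. Levels per length changed with the length used, as given for *Elovl2*. *Elovl7* had the fewest counts of the 10 genes, 69 to 117 per library, which limits its precision.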
